A study of Mus musculus with 20 samples.

Results

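Mef2a, Mef2c and Mef2d are paralogous genes for MEF2 transcription factors. They are 3 of the 55487 genes in a count table of 20 RNA libraries from mouse subcerebral projection neurons, the cortical neurons whose axons descend to the brainstem and spinal cord. The members were selected on measured values in one respect: Mef2c had drawn attention by its low counts in growth cones relative to somata in the libraries labelled KO, and its paralogs were added by gene name. That contrast is therefore described below without a test. The remaining paralog, Mef2b, is not among the members.

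All animals were at postnatal day 1. The 4 groups had 5 libraries each: somata (cell bodies) from cortex of wild-type (WT) mice, somata from mice labelled Bcl11b KO, growth cones (the tips of growing axons) from brainstem and spinal cord of WT mice, and growth cones from mice labelled Bcl11b KO. Libraries are named here by the experiment number in their titles. The numbers were 7 to 11 in growth cones of both genotypes, 12, 14, 22, 25 and 26 in WT somata, and 14, 15, 22, 25 and 26 in somata labelled KO. How Bcl11b was deleted, how neurons and growth cones were labelled and sorted, and how many animals went into a library are not given in the sources used here. The p-values therefore measure the spread between these libraries, which may be in part technical.

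MEF2 proteins belong to the MADS-box family and bind an A/T-rich DNA site as homodimers or heterodimers. In neurons their activity is set largely after translation: calcium entry activates calcineurin and calcium/calmodulin-dependent kinases, p38 and ERK5 phosphorylate the activation domain, and class IIa histone deacetylases bound to MEF2 keep target genes silent until they leave the nucleus. In the cortex MEF2 factors are known for control of synapse number and of activity-dependent genes, and MEF2C is abundant in young cortical excitatory neurons. A level of RNA says nothing about that activity.

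The members lie on separate chromosomes (coordinates of GRCm38, as in the deposited table). Mef2a (ENSMUSG00000030557.17) spans chr7:67231163-67372858 on the minus strand. Mef2c (ENSMUSG00000005583.16) spans chr13:83504034-83667080 on the plus strand. Mef2d (ENSMUSG00000001419.17) spans chr3:88142372-88172086 on the plus strand. The counted exons add up to 14681, 15715 and 5985 bases. Exons of Mef2c overlapped no other gene. Mef2a exons shared 302 bases with Lysmd4 on the opposite strand, and Mef2d exons shared 531 bases with the antisense gene 1700113A16Rik. Whether the counting used strand is not stated, so reads in these shared stretches could not be assigned with certainty. The antisense partner of Mef2d had a mean of 0.799 CPM (counts scaled to the library total, with TMM factors) in WT somata and 3.03 CPM in WT growth cones, and Lysmd4 had 72.6 and 62.1 CPM.

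The 100 bases before a start site are shown for each member because the genes differ in base composition where transcription begins. They come from the RefSeq promoter table (GRCm38.p6), which lists 1 start for Mef2a, 1 for Mef2d and 3 for Mef2c. The first Mef2c start is shown. Each is written 5′ to 3′ on the gene's own strand, with CG dinucleotides in capitals.
Mef2a, chr7:67372859-67372958, minus strand: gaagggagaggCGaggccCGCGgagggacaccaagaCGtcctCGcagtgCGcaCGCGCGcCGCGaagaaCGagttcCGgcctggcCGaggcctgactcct
Mef2c, chr13:83503934-83504033, plus strand: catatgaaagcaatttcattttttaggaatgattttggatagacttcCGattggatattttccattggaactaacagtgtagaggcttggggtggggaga
Mef2d, chr3:88142272-88142371, plus strand: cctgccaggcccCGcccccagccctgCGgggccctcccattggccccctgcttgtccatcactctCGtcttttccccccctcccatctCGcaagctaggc

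These stretches hold 14 CG dinucleotides in Mef2a, 1 at the first Mef2c start and 4 in Mef2d. The stretches before the other Mef2c starts, not shown, hold 2 and 3. Over windows from 250 bases before to 50 bases after the start, the G+C content was 62.3% for Mef2a and 72.0% for Mef2d. At the 3 Mef2c starts it was 35.7%, 47.0% and 48.3%, against a median of 52.7% over all 32851 windows of 27025 genes. Only 4.64% of windows were as poor in G+C as the first Mef2c start. The Mef2c windows held 1, 10 and 4 CG dinucleotides, against a median of 7 over all windows. The count table sums all transcripts of a gene, so the start in use cannot be read from it.

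Windows were also searched, on both strands, for the MEF2 site CTANNNNTAG, the cAMP response element TGACGTCA and the CArG box bound by serum response factor. The MEF2 site was in 3.69% of all windows, the cAMP response element in 1.79% and the CArG box in 1.63%. The MEF2 pattern took any base at N, G and C included, so it is looser than an A/T-rich site. Its 3.69% is therefore an upper bound for windows with such a site of this form. Among the 5 windows of the members there was a single match, a MEF2 site in Mef2a that spans the start. The 30 bases around it, with the site in capitals, are shown because they hold the only match to this pattern in a member's windows.
Mef2a, chr7:67372841-67372870, minus strand: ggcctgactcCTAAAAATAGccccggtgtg
Of the 22 windows of 10 matched genes in a list of neuronal MEF2 targets, 1 held a MEF2 site, that of Jun. A match is a description of letters, not of binding.

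The genotype labels were checked against Bcl11b itself. WT somata held 700.4 ± 130 CPM (SD, n = 5) of it and somata labelled KO 1151 ± 56.6 CPM, a log2 difference of 0.74 with p = 0.00794 in an exact two-sided permutation test. No smaller p is possible with 5 against 5 libraries. WT growth cones held 101 ± 19.3 CPM and those labelled KO 102 ± 34.97 CPM (exact p = 0.944). Bcl11b counts were therefore higher, not lower, under the KO label in somata and did not separate the genotypes in growth cones. Which part of the gene was deleted is not given, so counts outside it check nothing. The genotype comparisons below are of libraries by label. Library totals were 18962308 to 51205154 counts in somata and 21657575 to 29323028 in growth cones.

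Mef2c was high and even in somata and far lower in growth cones. Its level in WT somata was 2234, 2278, 2758, 2413 and 2315 CPM (libraries 12, 14, 22, 25 and 26). In somata labelled KO it was 2745, 2318, 2413, 2343 and 2983 CPM (libraries 14, 15, 22, 25 and 26). The soma groups covered one another's range. In WT growth cones (libraries 7 to 11) it was 101, 297, 174, 256 and 255 CPM. In growth cones labelled KO it was 201, 257, 278, 215 and 197 CPM. All 10 growth cone libraries lay below all 10 soma libraries, and WT library 7 was the lowest.

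Mef2d followed the same order at lower levels and with more scatter. WT somata held 63.4, 82.1, 87.5, 67.4 and 48.1 CPM. Somata labelled KO held 61.5, 64.6, 51.8, 72.3 and 61.9 CPM. The 5 WT growth cone libraries held 14.8, 4.04, 22.2, 2.95 and 34.2 CPM. Those labelled KO held 5.30, 43.6, 9.89, 19.5 and 15.6 CPM. No growth cone library reached the lowest soma library, but within growth cones the values spread more than 10-fold. The WT growth cone libraries had 89 to 1072 Mef2d counts, and reads of amplified cDNA are not independent molecules.

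Mef2a did not separate the compartments. Its level was 54.9, 86.3, 47.0, 56.9 and 62.9 CPM in WT somata. It was 90.8, 55.9, 54.2, 60.3 and 44.3 CPM in somata labelled KO. WT growth cones had 7.68, 84.2, 51.9, 21.3 and 41.9 CPM, so that library 7 was under every soma library and library 8 was above all but the highest of both genotypes. Growth cones labelled KO had 22.9, 28.0, 30.1, 71.4 and 19.9 CPM, where library 10 stood apart. The ranges of all 4 groups overlapped.

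**Figure D1:**
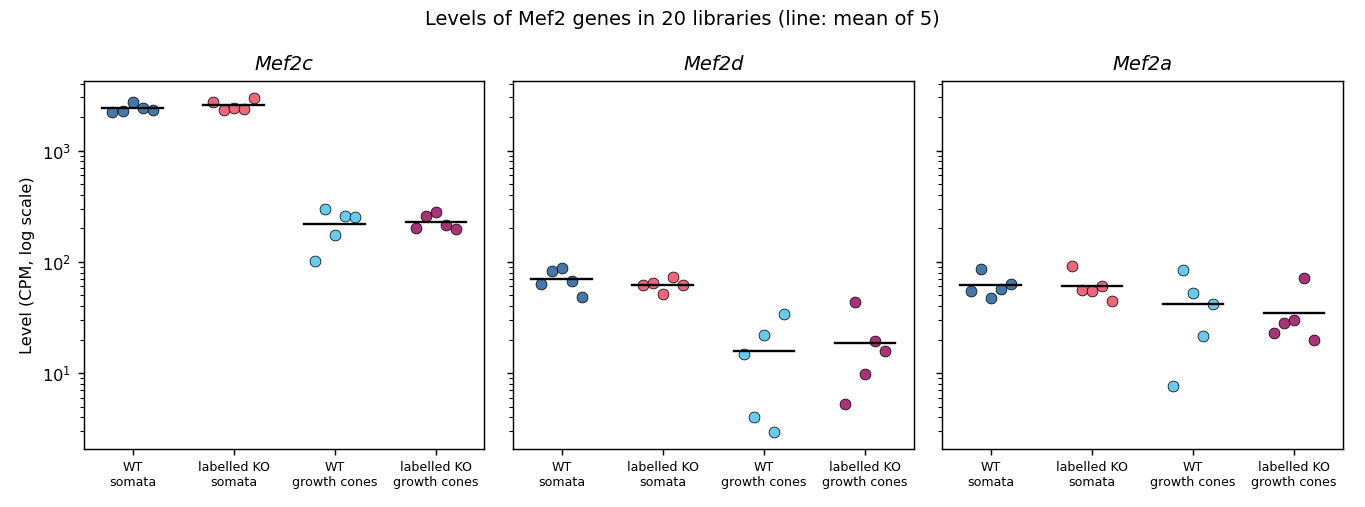
Levels of Mef2c, Mef2d and Mef2a in CPM on a log axis, with 1 point per library and a line at the mean of the 5 libraries of a group. Mef2c sits at 2234 to 2983 CPM in somata and 101 to 297 CPM in growth cones, whereas the Mef2a points of the 4 groups overlap.

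The coefficient of variation within WT growth cones was 36.3% for Mef2c, 71.3% for Mef2a and 83.7% for Mef2d. The median was 42.5% for all genes whose mean in that group reached 5 CPM. In WT somata the coefficient was 8.79% for Mef2c and 24.2% for Mef2a, against a median of 23.1% for all such genes. RNA input was 0.19 to 3.1 ng for growth cone libraries and 1.8 to 3.1 ng for soma libraries. Its part in the scatter was not tested.

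Per kilobase of counted exon, the order in somata was Mef2c, Mef2d, Mef2a. Mef2c stood at 153 ± 13.4 CPM per kb in WT somata, rank 274 of 24090 detected genes, and at 163 ± 18.6 in somata labelled KO. Mef2d stood at 11.7 ± 2.62 and 10.4 ± 1.23 CPM per kb, and Mef2a at 4.196 ± 1.02 and 4.16 ± 1.198. The lowest Mef2d library in WT somata (8.04 CPM per kb) was above the highest Mef2a library (5.88), so the 3 genes were apart from one another per kb. Without division by length, Mef2d (48.1 to 87.5 CPM) and Mef2a (47.0 to 86.3 CPM) overlapped in WT somata. In WT growth cones Mef2c stood at 13.8 ± 4.997 CPM per kb, rank 3704 of 24021, Mef2a at 2.82 ± 2.01 and Mef2d at 2.61 ± 2.19. Mef2a and Mef2d did not differ beyond their spread. Counted exon length joins all annotated transcripts, and unused ones lower a gene's level per kb.

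Of the summed level per kb of the 3 genes, Mef2c made up 90.6 ± 1.53% in somata of WT mice and 91.7 ± 1.28% in those labelled KO. Its share in growth cones was 71.6 ± 11.1% (WT) and 73.9 ± 10.1% (labelled KO). Mef2a held 2.52 ± 0.697% in WT somata and 13.4 ± 7.33% in WT growth cones, and Mef2d 6.88 ± 1.23% and 14.98 ± 11.4%. The growth cone shares differed widely from library to library, with Mef2c between 60.5% and 89.3% in the WT libraries. Mef2c was the main member in every one of the 20 libraries.

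**Figure D2:**
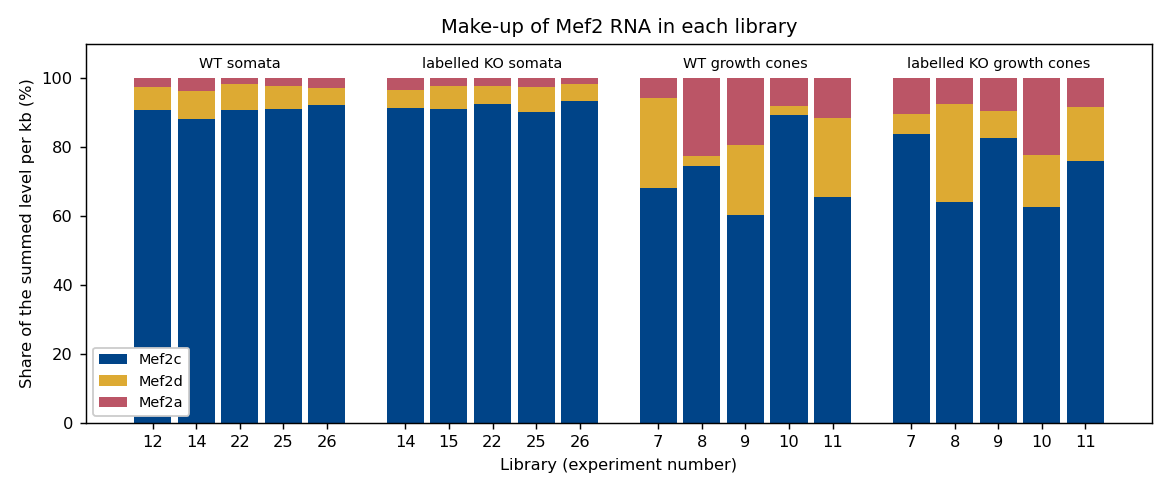
Share of each Mef2 gene in the summed level per kb of the 3 genes, in percent, with 1 stacked bar per library named by its experiment number. Mef2c fills 90.6% of the WT soma bars on average and 60.5% to 89.3% of the WT growth cone bars.

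Mef2b, the paralog left out of the set, had 0 counts in 14 libraries and 1 count in 2 more. The other 4 libraries, 1 in each group, had 18 (WT somata, 26), 115 (somata labelled KO, 14), 225 (WT growth cones, 10) and 78 counts (growth cones labelled KO, 11). It passed the filter on low counts in no comparison. Its exons share 62 bases with Borcs8 on the same strand.

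The first comparison asked whether soma levels of the family differed between libraries labelled KO and WT. No member passed. The means of Mef2c were 2400.0 ± 211 CPM (WT) and 2560.0 ± 292 CPM (labelled KO), a log2 fold change of 0.09 ± 0.09 (SE) with a 95% interval of -0.11 to 0.29 (0.93-fold to 1.22-fold; edgeR's quasi-likelihood test, Benjamini-Hochberg adjusted p = 0.951). Mef2d differed by -0.16 ± 0.17 (interval -0.53 to 0.20, adjusted p = 0.955). Mef2a differed by -0.02 ± 0.21 (interval -0.48 to 0.45, adjusted p = 0.999). Of the 14911 genes tested in this comparison, 0.731% (109) passed the false discovery rate (FDR) of 0.05, 0.416% higher and 0.315% lower in the libraries labelled KO. Their groups did not overlap for 3.17% of genes and for no member. Over the whole table the median log2 fold change was 0.00.

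In growth cones the libraries labelled KO and WT overlapped for every member. Mef2c differed by 0.10 ± 0.26 (interval -0.46 to 0.66), Mef2d by 0.30 ± 0.77 (interval -1.37 to 1.97) and Mef2a by -0.20 ± 0.57 (interval -1.45 to 1.04), each with an adjusted p of 0.999 in the edgeR test. The intervals of Mef2a and Mef2d reach beyond a doubling in either direction. The groups did not overlap for 0.532% of all genes. Of 15419 genes 0% passed the FDR with edgeR, while 329 had an unadjusted p under 0.05 and DESeq2 called 11.

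The difference between the genotype effects in growth cones and in somata was tested over all 20 libraries. It was -0.01 ± 0.28 for Mef2c (interval -0.59 to 0.57), 0.42 ± 0.77 for Mef2d (interval -1.18 to 2.03) and -0.25 ± 0.64 for Mef2a (interval -1.59 to 1.09), with an edgeR adjusted p of 1.00 for each. Across all genes 0.0397% of 17645 genes passed. The sign of the Mef2c value changed with the scaling.

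The comparison of compartments in WT used libraries on which the choice of Mef2c did not rest. Most of these libraries share their experiment numbers with libraries labelled KO, so they are not from separate experiments. WT growth cones and WT somata share no experiment number, so compartment and experiment cannot be told apart. Mef2c was lower in growth cones by 3.43 ± 0.26 on the log2 scale, from 2400.0 ± 211 to 217 ± 78.5 CPM. The log2 fold change of -3.43 (95% interval -3.98 to -2.87) is a 10.7-fold lower level, with an adjusted p of 1.44e-06 by edgeR's quasi-likelihood test. Only 1.51% of the genes tested had a fold change as low. Mef2d also fell, from 69.7 ± 15.7 to 15.6 ± 13.1 CPM, with a log2 fold change of -2.11 ± 0.59 (interval -3.38 to -0.83, edgeR adjusted p = 0.0121). Mef2a stood at 61.6 ± 14.9 and 41.4 ± 29.5 CPM and did not pass, with -0.53 ± 0.48 (interval -1.58 to 0.52, edgeR adjusted p = 0.406). This value was -0.94 without WT growth cone library 8 and -0.23 without library 7. Of 15128 genes tested, 42.8% passed, 23.1% higher and 19.7% lower in growth cones, and the median log2 fold change was 0.07. The groups did not overlap for Mef2c and Mef2d, as for 37.9% of all genes tested.

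Markers of other cells moved with compartment too. Summed markers of the oligodendrocyte lineage were 59.5 to 109 CPM in WT somata and 457 to 2077 CPM in WT growth cones, and 5 of 6 of these genes passed as higher in growth cones. Summed astrocyte markers were 15.5 to 185 and 661 to 868 CPM (5 of 6 higher), and interneuron markers 121 to 200 and 603 to 829 CPM (7 of 8 higher). Hindbrain and spinal cord genes, mostly of the Hox clusters, were at 0.0297 to 0.188 CPM in WT somata, with Hoxb3 and Hoxa3 at 0 counts, and at 51.8 to 116 CPM in WT growth cones. The Hox genes had 0 to 2 counts per WT soma library, so they could enter the test only through growth cones. Endothelial and blood markers were 3.01 to 23.5 and 243 to 489 CPM (2 of 5 tested higher). Summed markers of subcerebral projection neurons were 2249 to 2503 CPM in WT somata and 631 to 924 CPM in WT growth cones, with 6 of 8 lower and 1 higher. Other neuron lists did not follow. General markers of cortical projection neurons overlapped, at 820 to 1053 and 585 to 948 CPM (0 of 4 called, against 42.8% of all genes). Callosal neuron markers also overlapped, at 120 to 220 and 99.2 to 210 CPM, with 3 of 5 higher and 1 lower. Muscle markers were low in both but higher in growth cones, at 7.52 to 17.0 and 20.5 to 63.3 CPM (1 of 1 tested higher). Myog was at 0 in all libraries. Microglial markers, which matter here because microglia also express Mef2 genes, overlapped at 39.4 to 154 and 53.8 to 77.5 CPM (1 of 7 higher and 1 lower). Besides the Hox genes, other markers reached the low-count filter only with growth cone libraries. In WT somata Sox10 had 0 counts in 3 of 5 libraries, and Slc32a1 had 1 to 23 counts. Lowest counts in a WT soma library were 0 for Olig2, 4 for Aqp4, 6 for Gad1, 6 for Gja1, 8 for Cux2 and 3 for Plxnd1. The calls in the oligodendrocyte, astrocyte, interneuron and callosal lists thus rest in part on such genes. The part of other cells in the compartment difference was not tested. In such bulk samples a lower share of RNA from the cells or growth cones of a type and less of that RNA in each cannot be told apart.

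In the libraries labelled KO, the contrast from which Mef2c was picked, the values were alike in order and are given without a test. Mef2c stood at 2560.0 ± 292 CPM in somata and 229 ± 36.2 CPM in growth cones, a log2 fold change of -3.40. Mef2d stood at 62.4 ± 7.37 and 18.8 ± 14.9 CPM (log2 fold change -1.65) and Mef2a at 61.1 ± 17.6 and 34.5 ± 21.1 CPM (log2 fold change -0.75). In this contrast 38.6% of the 15410 genes tested passed the FDR, and the groups did not overlap for 36.9%.

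**Figure D3:**
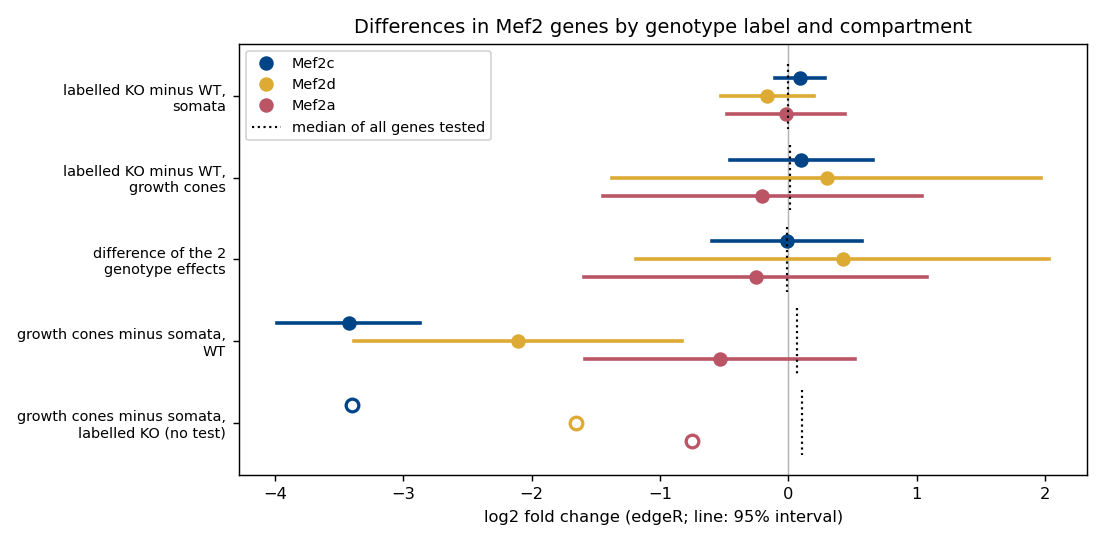
Log2 fold changes of Mef2c, Mef2d and Mef2a from edgeR, as points with 95% intervals as lines, and the median of all genes tested as a dotted line. Open points mark the contrast that was described without a test. Intervals of Mef2c (-3.98 to -2.87) and Mef2d (-3.38 to -0.83) lie below 0 for WT growth cones minus somata, and all intervals of the genotype comparisons span 0.

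Ratios between members within a library do not depend on the scaling between libraries. The log2 ratio of Mef2c to Mef2a was 5.30 ± 0.41 in WT somata (4.72 to 5.86) and 2.66 ± 0.91 in WT growth cones (1.74 to 3.63), so it was lower in all 5 growth cone libraries. The difference of -2.63 had an exact two-sided permutation p of 0.00794. After Benjamini-Hochberg adjustment over the 9 ratio comparisons made it was 0.0714, which misses 0.05. A single comparison at the smallest p this design allows cannot pass that adjustment. The log2 ratio of Mef2c to Mef2d differed by -0.96 between WT growth cones and somata (exact p = 0.23, adjusted 0.536), and that of Mef2d to Mef2a by -1.67 (exact p = 0.119, adjusted 0.536). With 1 library left out at a time the first ran from -1.48 (without WT growth cone library 10) to -0.60 (without library 7), the second from -2.27 (without library 7) to -0.99 (without library 8). That Mef2c fell by more than Mef2d was thus not shown. The 6 genotype comparisons of ratios had differences of -0.27 to 0.47 and exact p-values of 0.238 to 0.73.

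The enzymes that act on MEF2 proteins form the first list around the family. All gene lists here were chosen with earlier results of these data known. In WT growth cones 3 of 18 tested were higher than in somata and 4 lower (38.9% called, against 42.8% of all genes), with a median log2 fold change of -0.29 against 0.07 for all genes. Ppp3cb, a catalytic subunit of calcineurin, rose from 109 ± 13.5 to 288 ± 93.0 CPM (log2 fold change 1.45, edgeR adjusted p = 0.000388). Its regulatory subunit gene Ppp3r1 fell from 192 ± 9.69 to 122 ± 16.7 CPM (-0.60, adjusted p = 0.00334). Camk1, a calcium/calmodulin-dependent kinase, rose from 46.3 ± 8.92 to 105 ± 22.6 CPM (1.22, adjusted p = 0.000678). Akap5, an anchor that holds calcineurin near channels, rose from 1.97 ± 1.72 to 18.8 ± 3.84 CPM (3.29, adjusted p = 0.00149).

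Among the other upstream enzymes, Camk2b fell from 1253 ± 164 to 267 ± 89.6 CPM (log2 fold change -2.18, edgeR adjusted p = 1.27e-05). Mapk7, which encodes ERK5, fell from 120 ± 16.8 to 35.9 ± 24.4 CPM (-1.68, adjusted p = 0.0125). Gsk3b, a kinase that phosphorylates many neuronal proteins, fell from 199 ± 18.1 to 100 ± 34.4 CPM (-0.94, adjusted p = 0.00459). Members of the list thus went both ways, calcineurin subunits included.

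Between somata labelled KO and WT, 2 of the 18 upstream enzymes passed, both higher (11.1% called against 0.731% of all genes; list median 0.05). Camk1 had means of 46.3 ± 8.92 CPM (WT) and 115 ± 13.6 CPM (labelled KO), and the groups did not overlap (log2 fold change 1.301 ± 0.15, edgeR adjusted p = 0.00253). Camk1d, a second kinase of that class, stood at 45.8 ± 4.79 and 71.3 ± 7.60 CPM (0.63, adjusted p = 0.0411). The call of Camk1 held in all 18 alternatives run and that of Camk1d in 7, lost for instance without a low-count filter (adjusted p = 0.0715). In growth cones Camk1 was 105 ± 22.6 (WT) and 122 ± 16.7 CPM (labelled KO), and its genotype effect there was smaller than in somata by 1.08 on the log2 scale, which did not pass (-1.08 ± 0.25, edgeR adjusted p = 0.168). These changes came with no call for a Mef2 member. Of the 7 interneuron markers tested between soma groups only Npy, a neuropeptide gene, passed (113 ± 26.5 CPM in WT, 471 ± 48.3 CPM labelled KO, edgeR adjusted p = 0.000196). The other 7 markers of that list summed to 19.4 to 61.0 CPM in the WT soma libraries and 12.5 to 55.3 CPM in those labelled KO.

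Partners and repressors of MEF2 form the second list. In WT growth cones 1 of 16 tested was higher than in somata and 5 were lower (37.5% called, against 42.8% of all genes), with a median of -0.21. Upper-quartile scaling gave 2 higher and 2 lower, and removal of the gene length trend 2 and 1, so the lean to lower calls depended on the scaling. Hdac5, a class IIa histone deacetylase that binds MEF2, fell from 118 ± 28.3 to 62.5 ± 18.3 CPM (log2 fold change -0.87, edgeR adjusted p = 0.0110). Hdac4, of the same class, stood at 30.7 ± 4.68 and 32.0 ± 8.997 CPM and did not pass (0.11, adjusted p = 0.794). Hdac9 stood at 30.03 ± 7.25 and 10.1 ± 9.22 CPM and did not pass either (-1.51, adjusted p = 0.114). These 2 genes were named after their values were seen. Pias1, which encodes a ligase for protein modification, fell from 89.8 ± 10.3 to 27.9 ± 9.46 CPM (-1.64, adjusted p = 0.000222), and Carm1, an arginine methyltransferase that acts as a coactivator, from 117 ± 13.4 to 29.2 ± 33.9 CPM (-1.94, adjusted p = 0.0171).

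The deacetylase gene Sirt1 fell by 1.75 on the log2 scale (edgeR adjusted p = 0.0277). Hdac3, named after its values were seen, fell by 0.72 (adjusted p = 0.0333). The call of Hdac3 held in 5 of 17 alternatives, that of Sirt1 in 11, and those of Hdac5 and Carm1 in 15. Between the genotype labels no partner passed in somata, where Carm1 had the lowest p (0.28, adjusted p = 0.481), and the list median was -0.02.

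Of 15 neuronal genes known as MEF2 targets, 2 were higher and 3 lower in WT growth cones than in somata (33.3% called, against 42.8% of all genes), with a median of 0.00. Klf6, a zinc finger factor, fell from 630.2 ± 56.7 to 73.5 ± 36.4 CPM (log2 fold change -3.06, edgeR adjusted p = 1.76e-05). Homer1, a postsynaptic scaffold, fell from 158 ± 24.1 to 47.8 ± 10.7 CPM (-1.68, adjusted p = 3.93e-05), and Ube3a, a ubiquitin ligase, from 104 ± 15.7 to 49.3 ± 18.4 CPM (-1.02, adjusted p = 0.00705). Pcdh10, a protocadherin, rose from 35.05 ± 5.17 to 82.8 ± 20.7 CPM (1.29, adjusted p = 0.000566). Bdnf, a neurotrophin, stood at 0.970 ± 0.696 CPM in somata and 10.1 ± 2.80 CPM in growth cones. Its call rests on the filter as well, since it had 1 to 58 counts per WT soma library and reached 10 counts in 4 of the 5. Arc, an immediate early target, was low throughout, at 2.05 ± 2.04 CPM in WT somata and 2.06 ± 3.04 CPM in WT growth cones.

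In somata no MEF2 target passed between the genotype labels. The list median was 0.08 against 0.00 for all genes, and Klf6 had the lowest p (log2 fold change -0.38, edgeR adjusted p = 0.366). In growth cones 0 of the 14 targets tested passed, nor did any member of the other lists. For the difference between the genotype effects, Homer1 had the lowest p of the targets (-0.55, adjusted p = 0.705).

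Of the other MADS-box and calcium-responsive factors, 1 of 15 tested passed between WT compartments, against 42.8% of all genes, and the list median was 0.33. The count was 3 with upper-quartile scaling and with DESeq2, and 4 with the gene length trend removed. Fosl2, an AP-1 subunit, was the one that rose, from 4.74 ± 1.56 to 28.9 ± 22.5 CPM in WT growth cones (log2 fold change 2.65, edgeR adjusted p = 0.00236). Srf, the gene of serum response factor and the other well known MADS-box factor, stood at 7.86 ± 2.61 and 6.65 ± 6.58 CPM (-0.19, adjusted p = 0.912). Fosl2 also had the lowest p of this list between somata labelled KO (14.2 ± 4.28 CPM) and WT somata (4.74 ± 1.56 CPM), without passing (1.58, adjusted p = 0.0514).

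Mef2c and Mef2d were set beside 35 other transcription factors of cortical neurons to see where they stand among such RNAs. In WT growth cones 9 of the 35 were higher than in somata and 13 lower (62.9% called), with a median of -0.18. Cux2, among the 9 higher, had 8 to 215 counts per WT soma library and reached 10 counts in 4 of the 5. It therefore passed the low-count filter through the growth cones where it was high. Of all genes 42.8% were called, 23.1% higher and 19.7% lower. The 4 lower genes with the smallest p were Nfix (log2 fold change -2.12), Bhlhe22 (-2.45), Ldb2 (-2.63) and Zbtb18 (-2.32), with edgeR adjusted p-values of 6.02e-07 to 7.52e-06. The 4 higher ones were Lmo4 (3.39), Lhx2 (2.57), Cux1 (1.38) and Bcl11a (0.65), with adjusted p-values of 7.55e-08 to 0.00242. Calls in this list thus went both ways. Mef2c, at -3.43, lay below each of the 4 lower genes named, which were picked by p and not by fold change. Sox5, a further lower gene named after its values were seen, fell from 280 ± 45.6 to 28.9 ± 15.3 CPM. Its log2 fold change over the 17 alternatives was -3.60 to -2.97, a range that holds that of Mef2c (-3.54 to -3.20).

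The genotype labels did separate some of these factors in somata, where no Mef2 gene passed. Of the 35, 5 were higher in somata labelled KO and 1 lower (17.1% called, against 0.731% of all genes). The list median was 0.21, against -0.003 for all genes. Etv1 (log2 fold change 1.73, edgeR adjusted p = 0.00475), Tle4 (1.80, adjusted p = 0.00693), Bcl11a (0.60, adjusted p = 0.00807) and Tcf4 (0.76, adjusted p = 0.0378) rose. So did Neurod6, named after its values were seen (adjusted p = 0.0491). Foxp1 fell by 0.92 (adjusted p = 0.00917). Without a low-count filter 3 were higher and 1 lower, in a fit of all 20 libraries 4 and 0, and with DESeq2 10 and 3. With the experiment number as a block 1 was higher and 0 lower. The call of Tle4 held in all 18 alternatives, that of Tcf4 in 8 and that of Neurod6 in 5.

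RNAs known to stay in the nucleus formed the last list. Of 7 tested, 2 were higher and 0 lower in WT growth cones (28.6% called, against 42.8% of all genes), with a median of -0.25. Snhg11 rose from 10.8 ± 7.48 to 120 ± 35.7 CPM (log2 fold change 3.53, edgeR adjusted p = 0.00184) and Mirg from 0.636 ± 0.399 to 11.4 ± 5.93 CPM. Mirg had 0 to 33 counts per WT soma library and reached 10 counts in 4 of the 5, so it passed the low-count filter through the growth cones where it was high. The filter scales its minimum count of 10 to library depth. Snhg11 had 10 counts (0.299 CPM) in its lowest WT soma library, a deep one, and so also needed growth cone libraries to pass. Malat1, named after its values were seen, stood at 336 ± 139 CPM in somata and 205 ± 65.9 CPM in growth cones (-0.67, adjusted p = 0.0875). None of the 7 passed between the genotype labels in somata, where Rian had the lowest p (-0.53, adjusted p = 0.365).

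**Figure D4:**
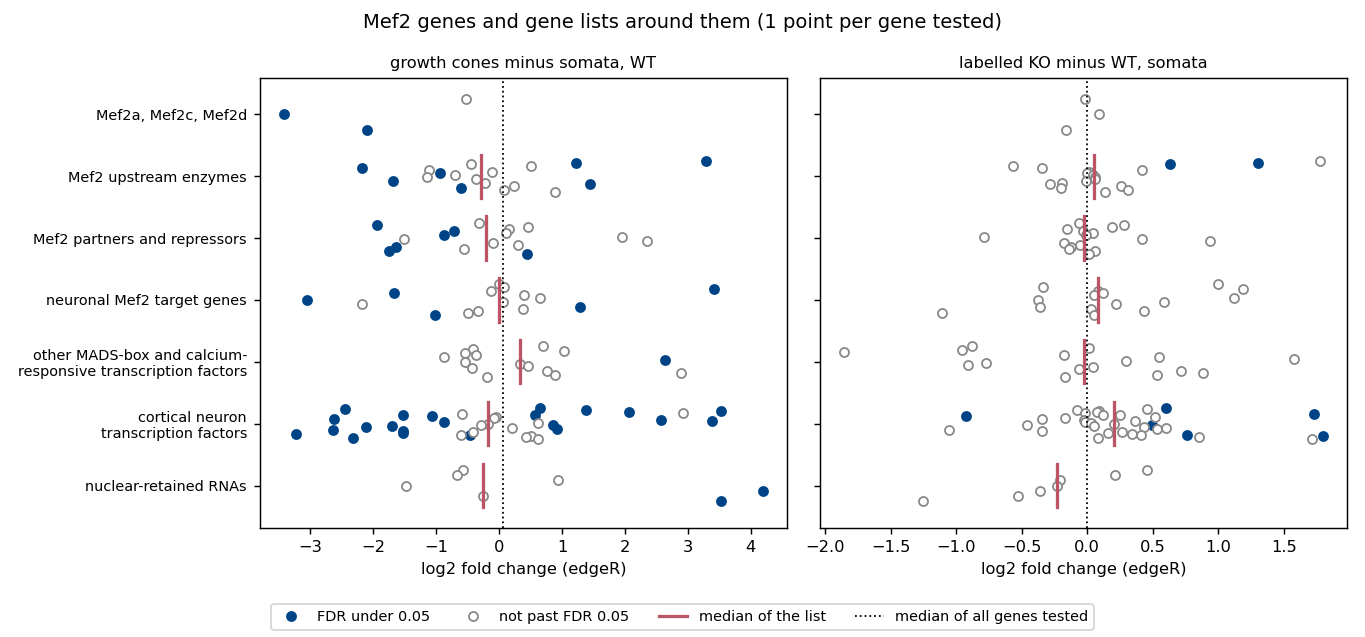
Log2 fold changes from edgeR for the Mef2 genes and for each gene tested in the lists, in WT growth cones minus WT somata (left) and in somata labelled KO minus WT somata (right). Filled points passed the FDR of 0.05, red lines are list medians and dotted lines the median of all genes tested. Mef2c and Mef2d are filled on the left at -3.43 and -2.11, and no Mef2 gene is filled on the right.

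Across the 20 libraries, the pattern of each member was set beside that of 11338 genes whose mean reached 5 CPM. Among the 3 most like Mef2c were Actr2 (Pearson r of log2 CPM 0.988) and Sez6 (0.988). Both have their high level in somata and their low level in growth cones, Actr2 with means of 280.0 and 263 CPM in somata and 92.6 and 91.0 CPM in growth cones. For Mef2d they were Bysl (0.942), Ammecr1l (0.918) and Rundc3b (0.912), and for Mef2a Lonrf1 (0.866), Ubtf (0.856) and Trim23 (0.855). With group means removed, r was 0.893 for Mef2c with Actr2, 0.823 for Mef2d with Bysl and 0.814 for Mef2a with Lonrf1, and 0.533 for Mef2c with Sez6. Libraries share depth and preparation within a compartment.

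The members were not each other's nearest genes. By correlation with Mef2c, Mef2d ranked 1859 (r = 0.77) and Mef2a 3214 (r = 0.627) among the 11338 genes. Of the genes most like Mef2d, Mef2c ranked 539 and Mef2a 3918. After the group means were removed, r was 0.578 for Mef2c with Mef2a, -0.208 for Mef2c with Mef2d and 0.0356 for Mef2a with Mef2d over the 20 libraries.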

How the data were processed

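The authors deposited unscaled read counts per gene for all 20 libraries in 1 table. Per the labels' protocols, RNA purified on micro columns was turned into cDNA by SMART-seq v4, and Nextera XT gave the libraries. The submitters' processing notes name Trimmomatic 0.39, STAR 2.7.1a, featureCounts 1.5.0 and the build GRCm39. The exon coordinates in the deposited table, however, are those of GRCm38: GENCODE M21 lists the same exons for 54515 of 55487 genes (98.2%), and gave the symbols of 55227. Strand setting and the handling of reads with several matches are not given in the sources used here. Coverage along a gene and single transcripts cannot be read from such counts.

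Counts were tested with edgeR 4.0.16 in R 4.3.3 (filterByExpr with minimum count 10, TMM scaling, quasi-likelihood F test, Benjamini-Hochberg over all genes tested, FDR 0.05). Only the groups compared entered a fit, and the difference of genotype effects used all 20 libraries. Adjusted p-values of single genes come from edgeR. Standard errors come from the F statistic, and 95% intervals from the t distribution. Levels are CPM with TMM over all libraries, as mean ± SD of n = 5. Ratios used CPM + 0.5 and exact permutation tests over 252 regroupings. The edgeR code was checked on simulated counts with 1 spread for both compartments, lower than that of the growth cone libraries, and with changes in well counted genes only. That check does not measure the power of the growth cone comparisons. No 2 libraries of a group were alike within sampling noise (smallest chi-square per degree of freedom 52.7). Entries that name no gene numbered 0.

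The members and lists were chosen with earlier results of these data known. The text names the members, Bcl11b, Mef2b, up to 4 genes per list and direction past the FDR with the lowest p, the gene with the lowest p where none passed, and the 3 genes most like each member, skipping symbols that are only identifiers (a choice made with the values in view). Genes that this rule names but the text leaves out are not reported here. Alternatives covered scaling, filtering, DESeq2 1.42.0, a fit of all libraries, removal of a gene length trend, the experiment number as a block and each library left out.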

Additional observations from a re-analysis of the deposited data

Results flagged for a closer look

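In growth cones labelled KO, Mef2a in library 10 was 71.4 CPM, apart from the other 4 libraries of the group at 19.9 to 30.1 CPM. Its gap to the nearest library exceeded Dixon's 95% critical value of 0.71 of the group's range. Of 16 gene groups examined (Mef2a, Mef2c, Mef2d and Bcl11b in 4 groups) this was the only one, and chance flags about 1 in 20. Without that library, the Mef2a difference between growth cones labelled KO and WT was -0.70 in place of -0.20, and neither value passed the edgeR test.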

How the results depend on the processing

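All 17 alternatives of the WT compartment comparison kept Mef2c (-3.54 to -3.20) and Mef2d (-2.63 to -1.63, highest adjusted p 0.0447) past the FDR and Mef2a below it. No member passed between genotype labels under any alternative run. The Mef2c difference of genotype effects (-0.01) turned to 0.0048 with DESeq2 size factors, 0.020 with upper-quartile scaling, 0.0048 in DESeq2's own test, 0.22 with the gene length trend removed and 0.063 with the replicate block. The described Mef2c fold change in libraries labelled KO was -3.20 with upper-quartile scaling and -3.00 without the length trend. Upper-quartile scaling moved the median of all genes from 0.07 to 0.28 in the WT compartment comparison and from 0.11 to 0.31 in libraries labelled KO. Genes called between soma groups numbered 109, against 402 with DESeq2, 30 in the fit of all 20 libraries and 34 with the replicate block. Between growth cone groups they numbered 0, 11 (DESeq2) and 7 (all libraries), and for the difference of effects 7, 273 (DESeq2), 12 (length trend removed) and 0 (block). From raw counts without length, the Mef2c share was 94.8% in WT somata and 95.4% in those labelled KO, and that of Mef2d 2.74% and 2.35%. That of Mef2a was 2.465% and 2.29%, so Mef2d no longer stood apart from Mef2a. Of the 3 genes most like a member by Pearson correlation, 0 stayed among the 3 most alike by Spearman correlation for each member, and by deviations from group means 0 did for Mef2a and Mef2d and 1 for Mef2c. Shared experiment numbers did not meet the level set for a pairing, a correlation over 0.1 for each pair: same-numbered libraries of both genotypes correlated by -0.0465 to 0.0595 in somata and 0.00395 to 0.0882 in growth cones after group means were removed. Of the 9 same-numbered pairs 8 correlations were positive. In 7 the same number ranked first among the 5 libraries of the other genotype (not for 26 and 8). The titles give both genotypes these numbers, but what a shared number stands for is not given. Whether the libraries are paired was therefore not settled, and the main tests did not use the numbers. The block changed no call of a member. In somata it left 1 of the 18 upstream enzymes called (Camk1, adjusted p 0.0421) and 1 of the 35 cortical factors (Tle4, adjusted p 0.0214), this and other settings beyond scaling and DESeq2 being chosen for the lists after the data were seen.

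With 1 library left out at a time, the genotype difference in somata ranged from -0.20 to 0.14 for Mef2a, and the number of genes called there from 67 (without KO_soma replicate 22) to 107. In growth cones the range was -0.70 to 0.19 for Mef2a, -0.077 to 0.22 for Mef2c and -0.29 to 0.81 for Mef2d. The difference of genotype effects ranged from -0.69 to 0.19 (Mef2a), -0.19 to 0.10 (Mef2c) and -0.12 to 0.96 (Mef2d), with 5 to 12 genes called. The genotype difference in the log2 ratio ranged, in somata, from -0.047 to 0.25 (Mef2c to Mef2a) and -0.25 to 0.066 (Mef2d to Mef2a). In growth cones it ranged from -0.032 to 0.52 (Mef2c to Mef2a), -0.63 to 0.24 (Mef2c to Mef2d) and -0.21 to 1.07 (Mef2d to Mef2a). For Bcl11b in growth cones it ranged from -0.16 to 0.090. None of these changes brought a member past the FDR.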
